A study of Mus musculus with 4 samples.

Results

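The Toll-like receptors (TLRs) that sit on the cell surface, and the proteins that work with them there, were followed through the bone marrow of TLR9-/- and wild-type (WT) mice. They were 8 genes, Tlr1, Tlr2, Tlr4, Tlr6, Cd14, Ly96, Cd180 and Ly86, taken by symbol from the 31053 genes of the 4 count matrices. All 8 symbols were found. The libraries came from bone marrow mononuclear cells of femurs and tibias, isolated on a Ficoll gradient from 2 untreated TLR9-/- mice and 2 untreated WT mice of the C57BL/6 strain, with 1 library per mouse. Transcripts of single cells were captured with the 10x Chromium system and read at their 5′ ends. The TLR9-/- mice lack a working Tlr9 gene in every cell and from birth, so a difference within 1 cell type cannot be assigned to Tlr9 in that type. The genotypes were kept in separate cages, so genotype and cage cannot be told apart. The age and sex of these 4 mice were not given in the sources used here. The comparison between genotypes asked whether loss of TLR9, a receptor inside the cell, went with other levels of the receptors on its surface.

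TLRs are receptors of the innate immune system that bind molecules shared by many microbes. TLR2 works as a pair with either TLR1 or TLR6 and binds bacterial lipoproteins. TLR4 binds lipopolysaccharide of Gram-negative bacteria together with MD-2, the small secreted protein that Ly96 encodes, after CD14 has handed the lipopolysaccharide over. CD180, also called RP105, resembles TLR4 outside the cell but lacks the signalling domain, and it is carried to the surface with MD-1, the product of Ly86. CD180 and MD-1 are best known in B cells, in which they modulate responses to lipopolysaccharide, and they hold back TLR4 in macrophages and dendritic cells. TLR9, by contrast, binds DNA in endosomes.

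Tlr1 and Tlr6 are neighbouring paralogs on chromosome 5. In GENCODE vM21 on GRCm38, Tlr1 lies at chr5:64924679-64933563 and Tlr6 at chr5:64952031-64960097, both on the minus strand, with 18467 bases between them. Tlr2 lies at chr3:83836272-83841767 on the minus strand, Tlr4 at chr4:66827584-66930284 on the plus strand and Ly96 at chr1:16688051-16709611 on the plus strand. The partners Cd180 and Ly86 are both on the plus strand of chromosome 13, at chr13:102693558-102739629 and chr13:37345208-37419036. Because Tlr1 and Tlr6 share long similar stretches of sequence, any reads that fitted both could have moved their counts.

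RefSeq promoters on GRCm38.p6, from 250 bases before to 50 bases after a transcription start, were given for 5 of the 8 genes (Tlr1, Tlr2, Tlr6, Ly86 and Cd180). They are shown because Spi1, which encodes the ETS factor PU.1, was highest in mature neutrophils, the class in which Tlr2 and Tlr6 were also highest. The letters GGAAGT, an ETS core, were searched on both strands. They stood in 6 of the 8 promoters of these 5 genes, belonging to 4 genes, and in 7809 of 32851 promoters of the same length (23.8%). The windows below hold 30 bases each with the match in capitals, GGAAGT on the strand of the gene or ACTTCC where the match was on the opposite strand. A match in letters is a description of the sequence and not a binding site.
Tlr1, chr5:64933562-64933591, minus strand: ttaaatgttggaGGAAGTaggagcttgaat
Tlr2, chr3:83841621-83841650, minus strand: tgctggcgaccgGGAAGTtcggggccctga
Tlr2, chr3:83841581-83841610, minus strand: tccccttccctcACTTCCaggtcttcagtc
Tlr6, chr5:64960015-64960044, minus strand: aaattcggagaaGGAAGTcttggtaagtaa
Tlr6, chr5:64959211-64959240, minus strand: ttgtctcctcatACTTCCtttaaaataaat
Cd180, chr13:102693482-102693511, plus strand: tatgcaaaaagaACTTCCcctttttttttt
The match of Tlr1 began 21 bases before its start and that of Cd180 53 or 64 bases before its starts. Both promoters of Cd180 held this same match. Tlr1 and Cd180, which held a match, were highest in B cells and plasmacytoid dendritic cells, not in mature neutrophils. Ly86 and the other promoter of Tlr1 held no such letters in their windows.

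Of 40545 cells in the files, 39167 passed the limits on detected genes and mitochondrial UMIs. The kept cells of a library held 31210188 to 63958243 unique molecular identifiers (UMIs), with more UMIs per cell in the TLR9-/- libraries (medians 2545 and 3618) than in the WT libraries (1759 and 2287). Between 118 and 203 cell barcodes were shared by a pair of libraries, at most 1.83% of cells. Tlr9 itself, which checks the labels, had 41 and 48 UMIs in the TLR9-/- libraries against 120 and 97 in the WT libraries; the sources used here do not say which part of the transcript the disruption removes. Cells were clustered without the 8 genes and without 72 genes of their pathway, and clusters were named from markers, so every class name below means cells like that type. The 16 classes with at least 10 cells in every library held all but 1520 unnamed cells (3.88%) and 2 small classes, of 27 macrophages and 102 megakaryocytes. WT library 1 held more transcripts of other cell types in several classes (in monocytes, erythroid markers summed to 402 CPM there and to 118 to 214 CPM in the others), and results that rested on it are given without it.

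UMIs of most members were few. Over all kept cells the 4 libraries held 645 UMIs of Tlr1, 1438 of Tlr2, 669 of Tlr4, 445 of Tlr6, 1204 of Cd14, 1845 of Ly96, 3493 of Cd180 and 24587 of Ly86. Levels between classes are given as CPM, the UMIs of a gene divided by all UMIs of the class in a library and multiplied up to parts per 1e6, scaled across the 16 classes and 4 libraries by the TMM method, as the mean ± SD of the 4 libraries. Levels are compared between classes, never between genes. At these levels the libraries are listed by genotype, but genotypes are compared further below, on counts scaled within a class. CPM is a share of the UMIs of a class and not an amount per cell. Median UMIs per cell were 730 to 1447.5 in the mature neutrophil libraries and 3772 to 5480 in the monocyte libraries. They were 11322 to 22150 in the myeloid progenitor libraries. In the order of its levels, each gene was tested between every class and the next by edgeR's quasi-likelihood test with the library as a block. Of 120 such tests, 14 had an adjusted p under 0.05, and 4 of these 14 kept the call under every alternative run. These 4 calls had values under 9 or 10 alternatives, against up to 11 for the others. Because the order came from the same levels, these tests say only which neighbours differed beyond the spread between libraries.

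**Figure D1:**
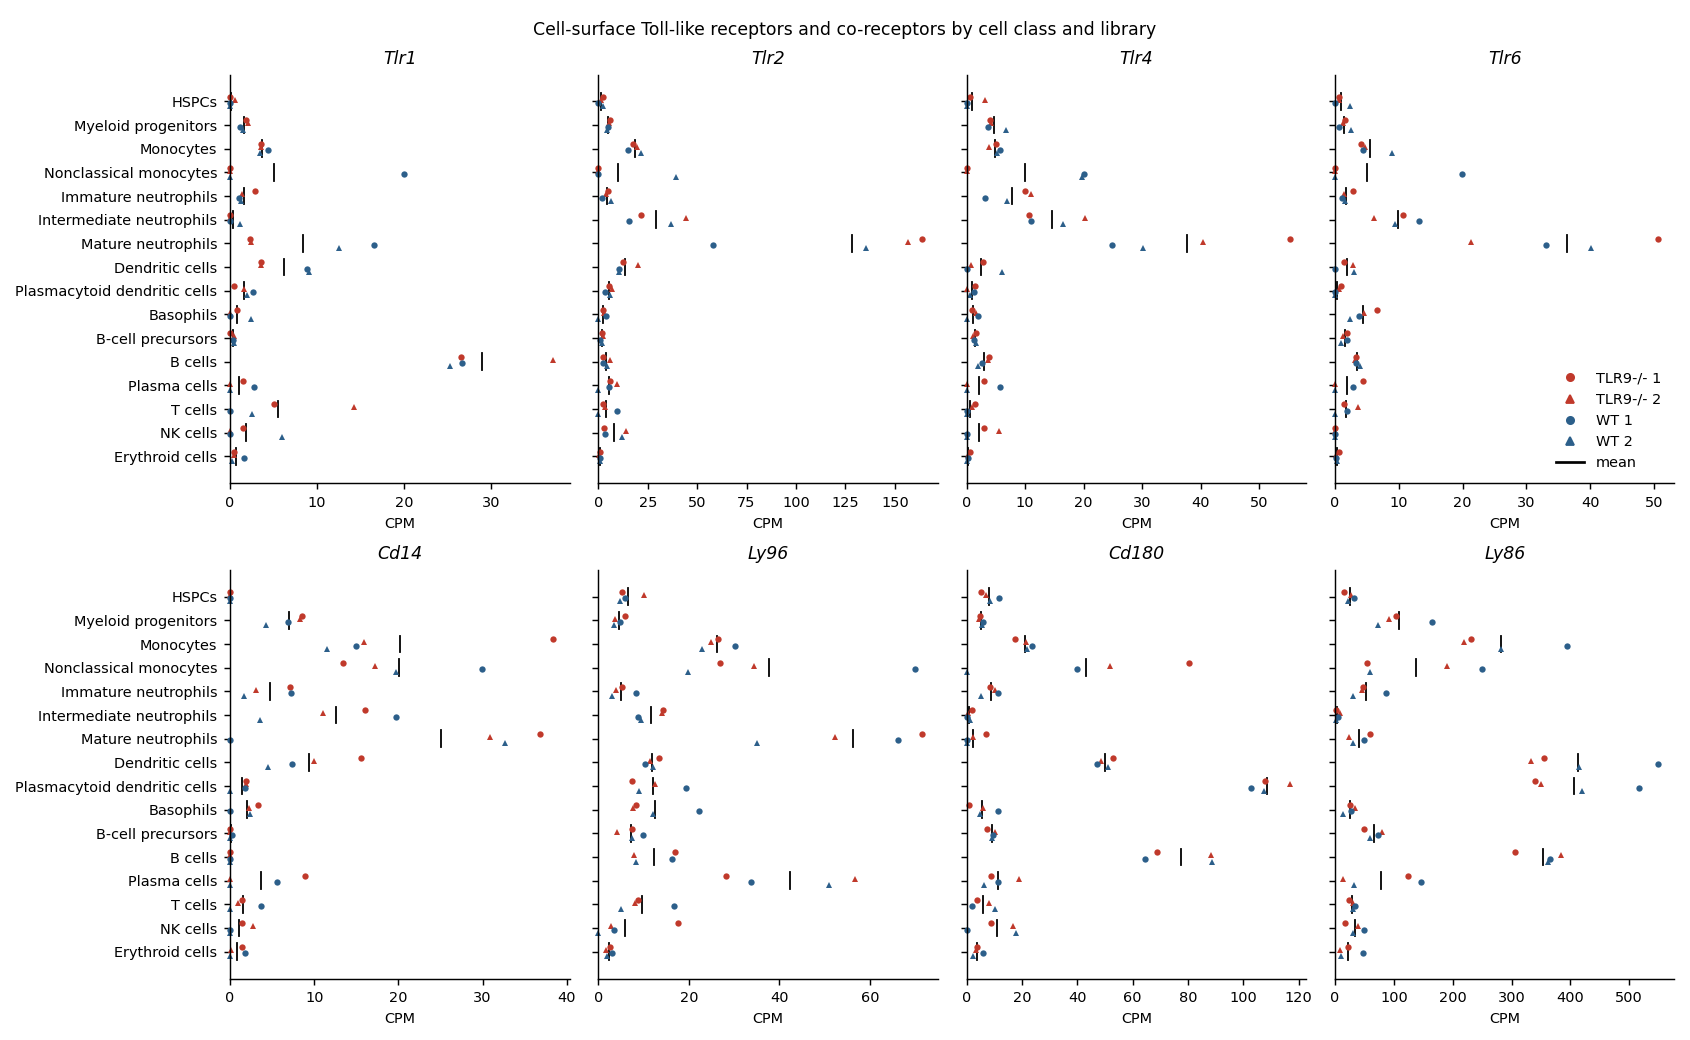
Levels of the 8 genes in the 16 classes, 1 panel per gene. Each point is 1 library (CPM scaled by TMM across classes). The 4 libraries of Tlr2 in mature neutrophils sit between 57.9 and 164, above those of every other class, whereas Cd180 is highest in plasmacytoid dendritic cells, at 103 to 117, and Ly86 overlaps between dendritic, plasmacytoid dendritic and B cells.

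Tlr2 had its highest level in mature neutrophils. Its level there was 164 and 157 CPM in TLR9-/- mice (libraries 1 and 2, in this order throughout) against 57.9 and 136 CPM in WT mice, a mean of 128 ± 48.5 (198 UMIs). Intermediate neutrophils followed with 29.4 ± 13.3, monocytes with 18.4 ± 2.73 and dendritic cells with 13.4 ± 4.5. All 4 libraries of mature neutrophils lay above all 4 of intermediate neutrophils, which reached 44.2. Between neighbours in this order, 2 of 15 tests passed, beside 40.4% of such tests over all genes, namely mature over intermediate neutrophils (log2 difference 2.10 ± 0.23, SE) and intermediate neutrophils over monocytes (0.78 ± 0.22, adjusted p = 0.00134). The latter call was lost without TLR9-/- library 2 (0.51, adjusted p = 0.146) and with members kept in the clustering (0.30, adjusted p = 0.253), and it turned to -0.38 with no scaling between classes. The other 12 classes averaged from 9.87 in nonclassical monocytes, which rested on 2 UMIs, down to 0.745 in erythroid cells.

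Tlr1, a partner of TLR2, was highest in B cells instead. Its level in B cells was 26.6 and 37.2 CPM in TLR9-/- mice against 26.7 and 25.3 CPM in WT mice, a mean of 28.9 ± 5.54. B cells held 316 of its 645 UMIs. Mature neutrophils came next with 2.30, 2.37, 16.6 and 12.5 CPM, on 9 UMIs in all, so no B cell library overlapped them. The step from B cells to mature neutrophils was the 1 of 15 neighbour tests of Tlr1 that passed (log2 difference 2.10 ± 0.48, adjusted p = 0.00014), beside 49.8% over all genes. Dendritic cells (6.24 ± 3.11), T cells (5.47 ± 6.19), nonclassical monocytes (5.0 ± 9.99, 2 UMIs) and monocytes (3.72 ± 0.437) could not be put in order. The remaining 10 classes averaged 1.86 or less, down to 0.156 in hematopoietic stem and progenitor cells (HSPCs), which held 1 UMI.

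Within the B cells, Tlr1 was uneven. A cluster led by Ighd and Fcer2a, genes of mature naive B cells, had 47.2 CPM of Tlr1, against 16.1 and 16.8 in the other B cell clusters (unscaled, libraries pooled). This is a description with no test.

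Tlr6, the other partner of TLR2, followed Tlr2 rather than Tlr1. Its level in mature neutrophils was 50.7 and 21.4 CPM in TLR9-/- mice against 33.1 and 40.2 CPM in WT mice, a mean of 36.3 ± 12.3 on 51 UMIs. Intermediate neutrophils had 9.84 ± 2.90 and monocytes 5.55 ± 2.31, and no library of either reached the lowest of mature neutrophils. For Tlr6, 2 of 15 neighbour tests passed, beside 46.8% over all genes: mature over intermediate neutrophils (log2 difference 2.01 ± 0.37) and intermediate neutrophils over monocytes (0.76 ± 0.35, adjusted p = 0.0492). The second was lost without TLR9-/- library 1 (0.54, adjusted p = 0.263), without TLR9-/- library 2 (0.97, adjusted p = 0.0667) and without WT library 1 (0.51, adjusted p = 0.247), was at 0.26 (adjusted p = 0.56) with members kept in the clustering, and turned to -0.39 with no scaling between classes. Basophils had 4.32 ± 1.77 and B cells 3.42 ± 0.313. No UMI of Tlr6 was seen in 505 NK cells, which allows up to 2.33 CPM for counting error alone.

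Tlr4, as a share of UMIs, was also highest in neutrophils. Its level in mature neutrophils was 55.3 and 40.4 CPM in TLR9-/- mice against 24.8 and 30.1 CPM in WT mice, a mean of 37.6 ± 13.4 (56 UMIs). Intermediate neutrophils had 14.6 ± 4.63, and their highest library, at 20.3, stayed below the lowest of mature neutrophils. Nonclassical monocytes (9.93 ± 11.5, 3 UMIs), immature neutrophils (7.72 ± 3.53), monocytes (4.92 ± 0.768) and myeloid progenitors (4.64 ± 1.42) followed. For Tlr4, 2 of 15 neighbour tests passed, beside 43% over all genes. Mature neutrophils were above intermediate neutrophils by 1.30 ± 0.34 (log2, adjusted p = 0.00237), a call lost without TLR9-/- library 1 (0.96, adjusted p = 0.12). Immature neutrophils were above monocytes by 0.83 ± 0.28 (adjusted p = 0.0123), a call lost without TLR9-/- library 1 (0.75, adjusted p = 0.0916) and without TLR9-/- library 2 (0.45, adjusted p = 0.292), and it was at 0.16 (adjusted p = 0.623) with no scaling between classes. In the other 10 classes Tlr4 averaged 2.98 or less, down to 0.298 in erythroid cells. By share of cells at full depth, the order was different. A UMI of Tlr4 was seen in 3.77%, 3.92%, 2.59% and 2.44% of mature neutrophils. In myeloid progenitors, which held more UMIs per cell, it was seen in 5.52%, 8.94%, 4.35% and 9.87%. With cells thinned to the same number of UMIs, the shares were 2.16%, 2.19%, 3.45% (29 cells) and 1.89% in mature neutrophils. In thinned myeloid progenitors they were 0.355%, 0.244%, 1.02% and 0.822%.

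Cd14, whose product carries lipopolysaccharide to TLR4, was shared by mature neutrophils and monocytes. Monocytes held 544 of its 1204 UMIs, with 38.4 and 15.9 CPM in TLR9-/- mice against 15 and 11.5 CPM in WT mice (20.2 ± 12.3). Mature neutrophils had 36.9, 30.9, 0 and 32.6 CPM (25.1 ± 16.9, 42 UMIs), where the library at 0, WT library 1, had 116 such cells. These classes and nonclassical monocytes (20.1 ± 7.09, 6 UMIs) overlapped and were not separated. Intermediate neutrophils (12.6 ± 6.98), dendritic cells (9.34 ± 4.68), myeloid progenitors (6.99 ± 1.99) and immature neutrophils (4.78 ± 2.85) came next. Not 1 UMI of Cd14 was seen in 6458 B cells or in HSPCs. Relative to the 3 UMIs that a count of 0 allows in the class, pooled monocytes held at least 78.8-fold more Cd14 per UMI than B cells and at least 31.8-fold more than HSPCs, and mature neutrophils held at least 67.7-fold more than B cells. TLR9-/- library 1 held 318 of the 544 UMIs in monocytes, and without it the first 2 bounds were 42.4-fold and 12.8-fold. Without WT library 2 the bound for mature neutrophils was 44.3-fold. For Cd14, 2 of 15 neighbour tests passed, beside 45.6% over all genes: myeloid progenitors over immature neutrophils (log2 difference 0.79 ± 0.34, adjusted p = 0.0393) and erythroid cells over B-cell precursors (2.66 ± 0.84, adjusted p = 0.00457; 1.88 and adjusted p = 0.103 without TLR9-/- library 1, 1.61 and adjusted p = 0.112 without marked doublets), the latter at 0.832 against 0.0627 CPM. The former was lost without TLR9-/- library 2 (0.45, adjusted p = 0.395) and without WT library 2 (0.71, adjusted p = 0.102), and its sign turned in thinned cells (-0.67, adjusted p = 0.486).

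Ly96 was spread more widely than the receptor it serves. Mature neutrophils had 71.4 and 52.2 CPM in TLR9-/- mice against 66.2 and 35.1 CPM in WT mice (56.2 ± 16.2). Plasma cells were next with 28.2, 56.6, 33.7 and 51.0 CPM (42.4 ± 13.6), overlapping mature neutrophils (adjusted p = 0.066). Nonclassical monocytes had 37.7 ± 22.3 and monocytes 26.2 ± 3.09, on 611 UMIs. In the plasma cell class the markers of immature neutrophils, 14 of 14 detected, summed to 6896 to 12590 CPM per library, and whether they moved the Ly96 level was not tested. For Ly96, 2 of 15 neighbour tests passed, beside 47% over all genes: monocytes over basophils (log2 difference 1.27 ± 0.28, adjusted p = 0.00012) and myeloid progenitors over erythroid cells (0.99 ± 0.26, adjusted p = 0.00075). Both calls were lost in cells thinned to 1000 UMIs, at 0.66 (adjusted p = 0.255) and 1.11 (adjusted p = 0.173). From basophils (12.5 ± 6.80) down to myeloid progenitors (4.45 ± 1.2), no 2 neighbours among 11 classes were separated. Erythroid cells were lowest at 2.31 ± 0.622.

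Cd180 was highest in plasmacytoid dendritic cells and low in intermediate and mature neutrophils. Its level in plasmacytoid dendritic cells was 108 and 117 CPM in TLR9-/- mice against 103 and 107 CPM in WT mice (109 ± 5.89, 1006 UMIs). B cells had 68.9, 88.3, 64.4 and 88.9 CPM (77.6 ± 12.8) and dendritic cells 52.9, 48.4, 47.1 and 51.2 CPM (49.9 ± 2.62). The 3 classes did not overlap each other. Nonclassical monocytes (43.0 ± 33.4, 13 UMIs) ran from 0 to 80.5 and overlapped both B cells and dendritic cells. For Cd180, 2 of 15 neighbour tests passed, beside 43.2% over all genes. Plasmacytoid dendritic cells were above B cells by 0.48 ± 0.15 (log2, adjusted p = 0.00721; 0.43 and adjusted p = 0.0511 without TLR9-/- library 1, 0.31 and adjusted p = 0.105 with members kept in the clustering), and B cells were above dendritic cells by 0.63 ± 0.18 (adjusted p = 0.00275; 0.54 and adjusted p = 0.0615 without TLR9-/- library 2, 0.58 and adjusted p = 0.0612 in thinned cells). Monocytes had 21.1 ± 2.59, B-cell precursors 9.04 ± 1.16, immature neutrophils 8.83 ± 2.68 and HSPCs 8.05 ± 2.76. Intermediate and mature neutrophils held 3 and 4 UMIs of Cd180 (0.894 ± 0.764 and 2.32 ± 3.26).

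Ly86, the partner of Cd180, was abundant in the same classes and also in monocytes. It averaged 413 ± 97.1 in dendritic cells, 407 ± 81.1 in plasmacytoid dendritic cells, 354 ± 33.9 in B cells and 282 ± 79.5 in monocytes, and no neighbours among these were separated. Dendritic cells had 356 and 333 CPM in TLR9-/- mice against 549 and 415 CPM in WT mice. Myeloid progenitors already had 108 ± 39.3, which is above their neighbour, plasma cells (78.8 ± 65.5), without passing the test. The 1 of 15 neighbour tests of Ly86 that passed, beside 42.9% over all genes, was erythroid cells (21.8 ± 18.4) over intermediate neutrophils (4.12 ± 2.80), at 1.87 ± 0.52 (log2, adjusted p = 0.00113). The plasma cell libraries with 223 and 156 cells were at 123 and 146 CPM, and those with 25 and 23 cells at 14.2 and 31.9 CPM.

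Scaling mattered for the rarest monocytes. The TMM factors of the classes ran from 0.485 in intermediate neutrophils to 1.90 in nonclassical monocytes, of which there were 103. Without scaling between classes, an alternative chosen after seeing the data, nonclassical monocytes ranked first for Ly96 (66.9 CPM) and Cd14 (37.3 CPM) and after the leading class for Tlr1, Tlr2, Tlr4 and Tlr6. The leading classes of Tlr1 (B cells), Tlr2, Tlr4 and Tlr6 (mature neutrophils) and Cd180 (plasmacytoid dendritic cells) were the same with and without scaling.

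Across the 16 classes, known partners did not always run together. Pearson's r of log2(CPM + 1), a description over class means that share the same 4 libraries, was 0.886 between Cd180 and Ly86, 0.849 between Tlr2 and Tlr4 and 0.816 between Tlr4 and Tlr6. It was 0.777 between Tlr2 and Tlr6 but 0.366 between Tlr2 and Tlr1. Tlr4 and Cd14 had an r of 0.779, and Tlr4 and Ly96 of 0.543. Genes with enough CPM in a class for this comparison numbered 10410, the members among them. Members aside, those most like each member were Fau (0.843) and Icosl for Tlr1, Ccdc180 (0.940) and Washc2 for Tlr2, N4bp1 (0.935) and Map3k15 for Tlr4, Xylt1 (0.920) and Rassf3 for Tlr6, Gpr141 (0.958) and Lrrc25 for Cd14, Mvp (0.921) and Tmem184b for Ly96, Vav2 (0.904) and Rnase6 for Cd180, and Pkib (0.953) and Scpep1 for Ly86. The next for each were Ms4a4c, Mfsd14a, Msrb1, Trpm2, Gm9733, Cytip, Calhm2 and Plekho1, in that order of members, of which Ms4a4c and Msrb1 were also on the marker lists.

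Cd180 and Ly86 were also looked at in the same cells, after thinning each cell to 1000 UMIs. The share of cells with a UMI of Ly86 averaged 39.8% in plasmacytoid dendritic cells, 37.2% in dendritic cells, 33.3% in B cells, 26.1% in monocytes and 1.98% in erythroid cells, a type that should lack it. For Cd180 the shares were 13.6%, 6.37% and 8.45% in plasmacytoid dendritic, dendritic and B cells and 0.339% in erythroid cells. The median UMIs per cell before thinning were 2041.5 to 3607 in plasmacytoid dendritic cells and 2191 to 8866 in erythroid cells. In B cells, Ly86 was seen in 31.1% of the 399 cells with a UMI of Cd180 and in 33.8% of those without. The shares were 46.2% (318 cells) against 39.1% in plasmacytoid dendritic cells and 45.7% (46 cells) against 36.0% in dendritic cells. At this depth most cells of either class show no UMI of a gene they may express, so these shares do not count cells that lack it.

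**Figure D2:**
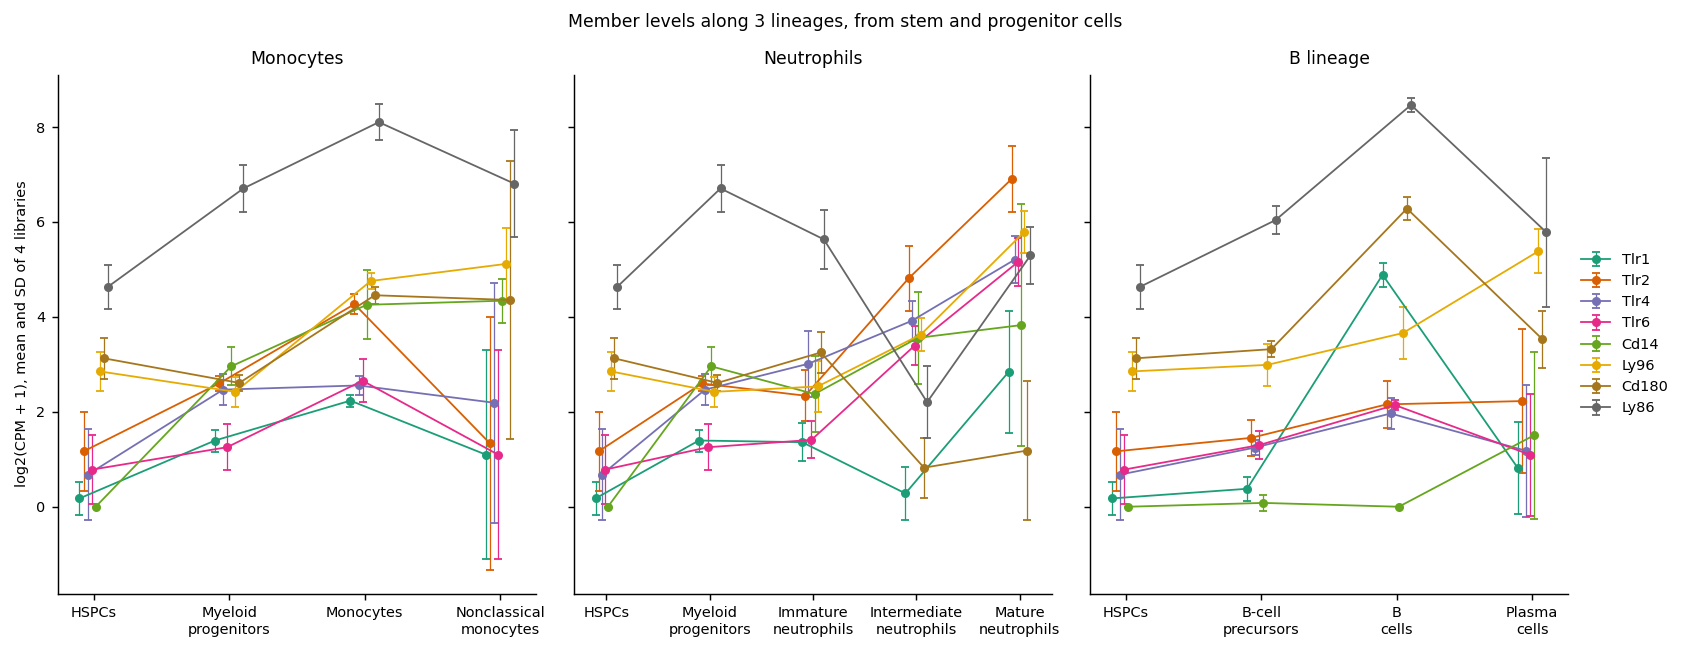
Levels of the 8 genes along 3 lineages from HSPCs to monocytes, neutrophils and plasma cells, as log2(CPM + 1), with CPM scaled by TMM across classes. Points are means and bars SDs of the 4 libraries; Cd180 and Ly86 fall where Tlr2, Tlr4 and Tlr6 rise, between immature and intermediate neutrophils.

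The steps from stem cells to mature cells were tested in the same fit over 11040 genes, with log2 differences given as later minus earlier class. From HSPCs to myeloid progenitors, 5 of 8 genes rose and none fell, beside 39.6% of all genes called in either direction. Ly86 rose by 2.11 ± 0.31, Tlr4 by 1.81 ± 0.56 and Tlr2 by 1.60 ± 0.48, and Tlr1 rose by 2.83 ± 1.05 from a single UMI in HSPCs. Cd14 was at least 10.3-fold higher (6.13-fold without TLR9-/- library 1 and 6.21-fold without TLR9-/- library 2). Tlr1 lost its call without TLR9-/- library 1 (2.25, adjusted p = 0.169) or WT library 2 (2.69, adjusted p = 0.0666), Tlr2 without TLR9-/- library 2 (1.38, adjusted p = 0.0656), and Tlr4 without TLR9-/- library 1 (1.51, adjusted p = 0.0867) or WT library 2 (1.41, adjusted p = 0.0602). Tlr2 was at 0.057 (adjusted p = 1) in thinned cells and at 0.86 (adjusted p = 0.0569) with members kept in the clustering, and Cd14 also lost its call in thinned cells (adjusted p = 0.111). Tlr6 (0.80), Ly96 (-0.62) and Cd180 (-0.55) did not pass.

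From myeloid progenitors to monocytes, 7 of 8 genes rose and none fell, beside 57.3% over all genes. Ly96 rose most, by 2.52 ± 0.19, followed by Cd180 (2.07 ± 0.19), Tlr2 (1.85 ± 0.19), Tlr6 (1.75 ± 0.27), Cd14 (1.45 ± 0.22), Ly86 (1.40 ± 0.23) and Tlr1 (1.0 ± 0.31, adjusted p = 0.00437). Tlr4 was the exception at 0.07 ± 0.25 (adjusted p = 0.839), so the receptor did not pass the test at the step at which its co-receptors Cd14 and Ly96 rose. None of the 8 passed between monocytes and nonclassical monocytes, where 19.8% of all genes did by edgeR's test. The closest was Ly86, at -1.0 ± 0.40 (adjusted p = 0.0707). This is near the median over all genes at this step, -0.946, with 17.1% of genes called lower and 2.62% called higher.

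The neutrophil branch split the list. From myeloid progenitors to immature neutrophils, 2 genes rose and 2 fell, beside 62.8% over all genes. Tlr4 rose by 0.89 ± 0.27 and Cd180 by 0.77 ± 0.26, while Cd14 fell by 0.79 ± 0.34 and Ly86 fell by 1.09 ± 0.25. Tlr4 lost this call without TLR9-/- library 1 (0.72, adjusted p = 0.0662) or 2 (0.59, adjusted p = 0.121), Cd180 without TLR9-/- library 2 (0.51, adjusted p = 0.231), and Cd14 without TLR9-/- library 2 (-0.45, adjusted p = 0.395) or WT library 2 (-0.71, adjusted p = 0.102). In cells thinned to 1000 UMIs the Cd14 difference was 0.67 (adjusted p = 0.486), of the opposite sign. The rise of Cd180 was at 0.17 (adjusted p = 0.659) without marked doublets and at 0.15 (adjusted p = 0.615) with no scaling between classes, and that of Tlr4 was at 0.28 (adjusted p = 0.357) with no scaling. At the finer clustering Cd14 was at -0.50 (adjusted p = 0.104) and Cd180 at 0.42 (adjusted p = 0.155), and Cd180 also lost its call in thinned cells (0.79, adjusted p = 0.266).

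From immature to intermediate neutrophils 5 genes rose and 2 fell, beside 55.9% over all genes. Tlr2 (2.80 ± 0.29) and Tlr6 (2.32 ± 0.46) rose most, with Cd14 (1.49 ± 0.45), Ly96 (1.46 ± 0.37) and Tlr4 (0.93 ± 0.32, adjusted p = 0.0112). Cd180 fell by 3.24 ± 0.65 and Ly86 fell by 3.21 ± 0.48, so that both partners of the CD180 complex were lowest of all classes in intermediate neutrophils. Cd14 lost its call without TLR9-/- library 2 (1.34, adjusted p = 0.0585), and Tlr4 without TLR9-/- library 2 (0.89, adjusted p = 0.0804) or WT library 2 (0.77, adjusted p = 0.0793). In thinned cells Cd14 was at 0.38 (adjusted p = 0.719) and Ly96 at 0.83 (adjusted p = 0.377), and with no scaling between classes Tlr4 was at 0.44 (adjusted p = 0.234).

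From intermediate to mature neutrophils 7 genes rose and none fell, beside 29.8% over all genes. Tlr2, Tlr4 and Tlr6 rose by the amounts given above, Ly96 by 2.15 ± 0.32, Ly86 by 2.99 ± 0.62, Cd14 by 1.36 ± 0.44 and Tlr1 by 4.38 ± 1.21 (adjusted p = 0.00355), the last from 1 UMI to 9. Cd14 lost its call without TLR9-/- library 2 (1.30, adjusted p = 0.0909) or WT library 2 (0.80, adjusted p = 0.268), and Tlr4 without TLR9-/- library 1 (0.96, adjusted p = 0.12). In thinned cells the calls of Cd14 (1.48, adjusted p = 0.0916) and Ly86 (2.46, adjusted p = 0.102) were lost. Cd180 did not pass (1.74, adjusted p = 0.294). Erythroid markers summed to 174 to 10231 CPM in the mature neutrophil libraries, highest in WT library 1, and their part in these levels was not tested.

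The B-lineage gained its receptors late. From HSPCs to B-cell precursors only Ly86 passed (1.44 ± 0.31, adjusted p = 9.6e-05), beside 47.4% over all genes, and this difference was -0.012 when the cells were clustered at the finer resolution of 2. From precursors to B cells, 7 of 8 genes rose and none fell, beside 50.8% over all genes. Tlr1 rose by 6.32 ± 0.35, more than the other 6, ahead of Cd180 (3.11 ± 0.17) and Ly86 (2.45 ± 0.24). Tlr6 (1.21 ± 0.36), Tlr2 (1.08 ± 0.34), Tlr4 (0.99 ± 0.41) and Ly96 (0.68 ± 0.22) rose less and from low levels, and each lost its call without at least 1 library. Without TLR9-/- library 1, Tlr4 was at 0.95 (adjusted p = 0.119) and Ly96 at 0.52 (adjusted p = 0.0616). Without TLR9-/- library 2, Tlr2 was at 0.96 (adjusted p = 0.0634) and Tlr4 at 0.80 (adjusted p = 0.142). Without WT library 1, Tlr4 was at 0.97 (adjusted p = 0.0868), and without WT library 2, Tlr6 was at 0.89 (adjusted p = 0.0711). Tlr2 and Ly96 also lost their calls in thinned cells (0.86, adjusted p = 0.084, and 0.76, adjusted p = 0.0707) and at the finer clustering (0.64, adjusted p = 0.126, and 0.35, adjusted p = 0.211), and Tlr4 with no scaling between classes (0.92, adjusted p = 0.0541).

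From B cells to plasma cells 3 genes fell and 2 rose, beside 39% over all genes. Tlr1 fell by 4.24 ± 0.69, Cd180 fell by 2.82 ± 0.34 and Ly86 fell by 1.98 ± 0.30. Ly96 rose by 1.60 ± 0.31 (adjusted p = 3.3e-05), although in cells thinned to 1000 UMIs the difference was -0.0021. Of those thinned plasma cells, 25 in TLR9-/- library 2 and 22 in WT library 2 held 0 UMIs of Ly96. Cd14 was at least 12.7-fold higher on 8 UMIs, of which TLR9-/- library 1 held 6, and its call was lost without TLR9-/- library 1 (adjusted p = 0.0655). The immature neutrophil markers in the plasma cell class, at the levels given above, stood beside both rises. Immature neutrophils themselves had 5.10 ± 2.34 CPM of Ly96, against 42.4 ± 13.6 in plasma cells. For Cd14 the levels were 4.78 ± 2.85 against 3.63 ± 4.40 CPM. The part of these markers in either rise was not tested. Over all 9 steps, 23 of the 43 calls were kept under every alternative run, but the calls were not checked equally. Calls of Tlr1, Tlr4 and Tlr6 had values under 10 alternatives and those of the other genes under 11. With intermediate neutrophils these were 9 and 10, since no cluster took that name at resolution 2. For Tlr6 the other missing value was that in thinned cells, and none between classes is given here for Tlr1 or Tlr4.

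In the fit without a block for the replicate number, no member passed the test between TLR9-/- and WT cells of the same class. With that block, an alternative given under the dependence on processing, Cd14 and Ly86 in monocytes passed. More genes were also called among all genes with the block, as counted there, and the share of monocyte genes called is not given. Differences were examined where a gene had at least 100 UMIs in a class over the 4 libraries, which gave 31 values in 12 classes. By edgeR's quasi-likelihood test, 0 of 31 passed an adjusted p of 0.05, 5 were under 0.05 before adjustment (Ly86 in monocytes, dendritic cells and plasmacytoid dendritic cells, and Cd14 in monocytes and myeloid progenitors), and DESeq2's Wald test called 0. Of all genes tested, 7.36% in monocytes, 9.68% in myeloid progenitors, 5.01% in dendritic cells and 6.60% in plasmacytoid dendritic cells were under 0.05 before adjustment. The share of all genes called was 0.505% in monocytes, 0.486% in myeloid progenitors, 0.246% in dendritic cells, 0.218% in plasmacytoid dendritic cells, 0.224% in B cells, 0.764% in B-cell precursors, 0.0758% in HSPCs, 0.504% in immature neutrophils, 0.601% in intermediate neutrophils, 0.161% in mature neutrophils, 0.0593% in erythroid cells and 0% in plasma cells. The 31 log2 differences, TLR9-/- minus WT, ran from -0.94 to 1.01 with a median of -0.09 and SEs of 0.170 to 0.873. In 11 of the 31 the 2 libraries of one genotype lay on one side of both of the other, 5 above and 6 below WT. Over all genes tested, the share without overlap was 25.5% in plasma cells to 41.2% in B-cell precursors (37.6% in monocytes and 41.1% in myeloid progenitors), so the members' share was near that of other genes. The smallest p that an exact permutation test allows for 2 mice against 2 is 0.333.

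**Figure D3:**
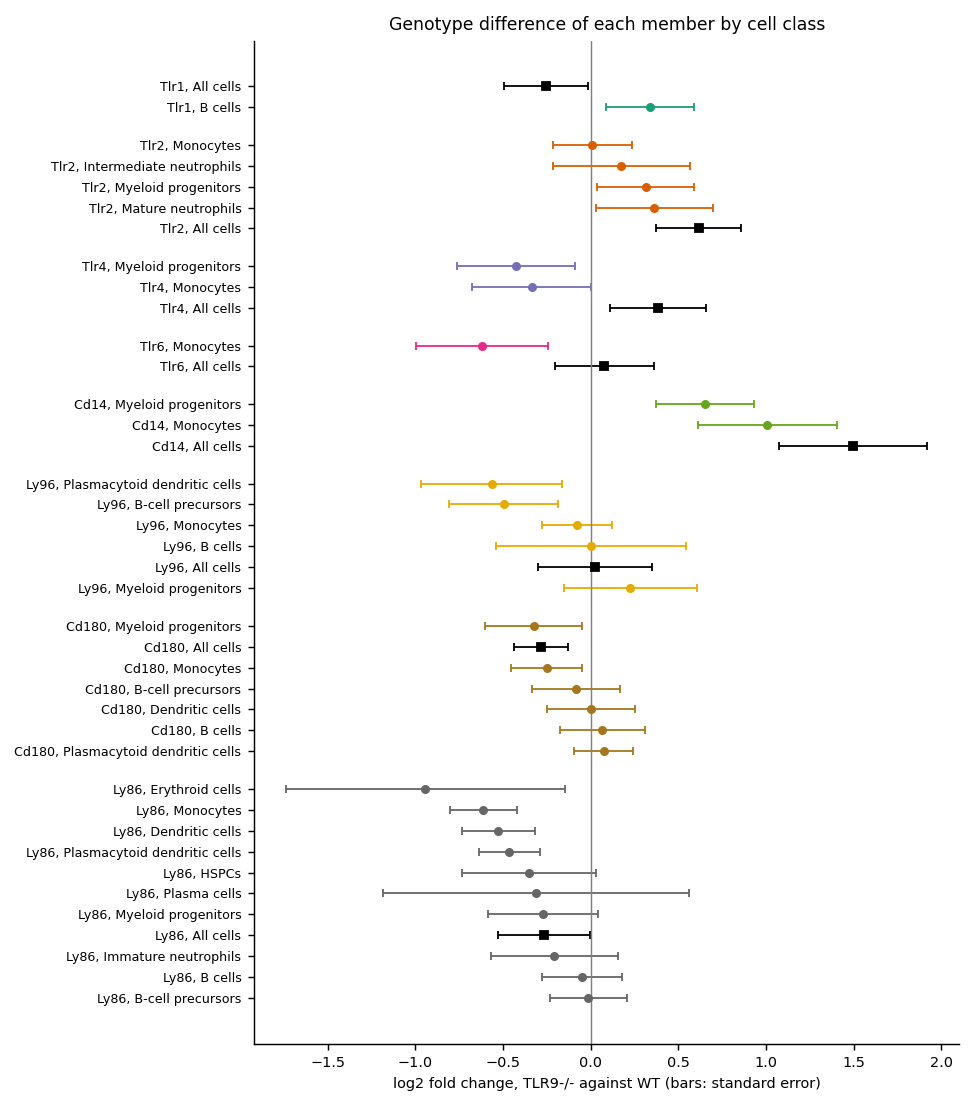
Log2 fold change, TLR9-/- against WT, of each gene in each class where it was examined (points, bars are SEs of edgeR's fit) and over all cells (black squares). Values for Ly86 lie at or below 0 in all 10 classes, and Cd14 lies above 0 in monocytes and myeloid progenitors. None passed an adjusted p of 0.05 in this fit, which had no replicate block.

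Ly86 was lower in TLR9-/- cells by estimate in each of the 10 classes examined, from -0.94 in erythroid cells to -0.02 in B-cell precursors. No value passed the test without the replicate block. The classes share the same mice, and the direction did not hold in every class without WT library 1. In monocytes it was at 243 and 229 CPM in TLR9-/- mice against 422 and 301 CPM in WT mice (scaled within the class), without overlap. The log2 difference was -0.61 ± 0.19 (adjusted p = 0.446). In dendritic cells the values were 413 and 391 against 654 and 505 CPM (-0.53 ± 0.21, adjusted p = 0.877). In plasmacytoid dendritic cells they were 420 and 428 against 643 and 526 CPM (-0.46 ± 0.17, adjusted p = 0.661). WT library 1 was the highest in all 3 classes, and without it the differences were -0.35, -0.31 and -0.29.

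In B cells, where the CD180 complex is best known, Ly86 overlapped between genotypes at 348 and 437 against 412 and 402 CPM (-0.05). In myeloid progenitors it was at 105 and 93.3 against 167 and 74.6 CPM (-0.27 ± 0.31), so the WT libraries enclosed both TLR9-/- libraries. HSPCs (18.3 and 33.9 against 40.2 and 28.1 CPM), immature neutrophils (30.8 and 30.03 against 58.8 and 19.5 CPM) and erythroid cells (20.4 and 7.73 against 44.5 and 8.81 CPM) overlapped as well, each with WT library 1 highest. With WT library 1 set aside, both TLR9-/- libraries lay above the other WT library in myeloid progenitors and immature neutrophils. In plasma cells, at 86.1 and 10.3 against 99.5 and 24.2 CPM, the difference of -0.31 ± 0.87 became -2.66 without TLR9-/- library 1. That fit leaves 1 TLR9-/- library, with 25 plasma cells.

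Markers of types that hold much Ly86 varied between the monocyte libraries. B cell markers (19 of 19 detected) summed to 626 and 754 CPM in TLR9-/- monocytes and 1156 and 575 CPM in WT monocytes. Dendritic cell markers (12 of 12) gave 302 and 368 against 647 and 260 CPM, and plasmacytoid dendritic cell markers (10 of 10) gave 330 and 368 against 629 and 340 CPM. WT library 1 was highest in each, while WT library 2 lay below both TLR9-/- libraries for the B cell and dendritic cell markers and between them for the plasmacytoid ones. The part of these transcripts in the Ly86 difference was not tested.

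Within the 8 clusters that made up the monocytes, both TLR9-/- libraries lay below both WT libraries for Ly86 in all 8, in CPM of the cluster and library. The largest cluster had 193 and 175 in TLR9-/- mice against 278 and 235 in WT mice. The same held in 3 of 3 dendritic cell clusters and in 1 of 2 plasmacytoid dendritic cell clusters. The clusters of a class share their mice, so they are not separate replicates. The share of all genes without overlap was not computed within clusters. In the whole classes it was 37.6% in monocytes, 33.9% in dendritic cells and 37.1% in plasmacytoid dendritic cells. Clusters also differed in makeup: a cluster led by Ifit3, an interferon-induced gene, had the highest pooled Ly86 (593 CPM) and held 60, 70, 154 and 13 cells in TLR9-/- libraries 1 and 2 and WT libraries 1 and 2.

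**Figure D4:**
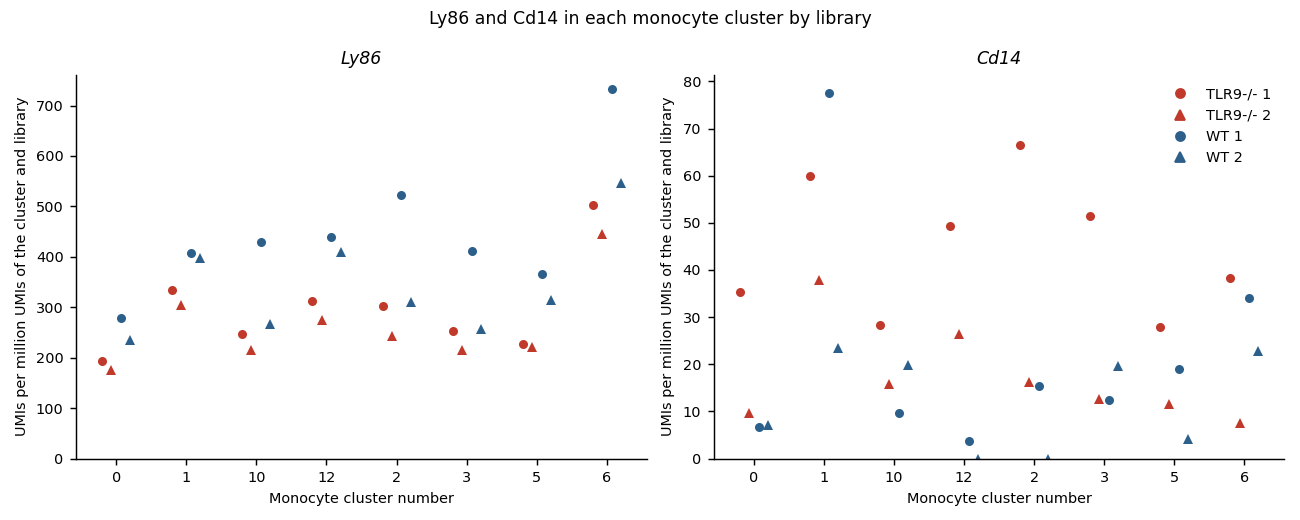
Ly86 and Cd14 in each of the 8 monocyte clusters, as CPM of the cluster, 1 point per library. For Ly86 the TLR9-/- points lie below the WT points in all 8 clusters. For Cd14 they lie above in 3 of 8, with TLR9-/- library 1 far above library 2 in most. Some Cd14 points rest on few UMIs, and the share of all genes without overlap was not computed within clusters.

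Cd14 went the other way, and unevenly. In monocytes it was at 40.4 and 16.6 CPM in TLR9-/- mice against 16.1 and 12.2 CPM in WT mice, a log2 difference of 1.01 ± 0.40 (adjusted p = 0.626). The groups did not overlap, but TLR9-/- library 2 was only just above WT library 1. Without TLR9-/- library 1 the difference was 0.24, and without TLR9-/- library 2 it was 1.51. Each of these fits leaves 1 TLR9-/- mouse, so neither holds a spread between TLR9-/- mice. In myeloid progenitors Cd14 was at 8.66 and 8.45 against 7.0 and 4.30 CPM (0.65 ± 0.28, adjusted p = 0.506), without overlap. By cluster, Cd14 was above WT without overlap in 3 of 8 monocyte clusters and 2 of 3 dendritic cell clusters, on few UMIs. Those monocyte clusters held 97 and 20, 54 and 9, and 17 and 8 UMIs in TLR9-/- mice. Their WT counts were 6 and 7, 3 and 0, and 1 and 0. The dendritic cell clusters held 9 and 10 against 2 and 1, and 5 and 3 against 1 and 1. The share of all genes without overlap was not computed within clusters. In the whole classes it was 37.6% in monocytes and 33.9% in dendritic cells, in either direction, and the clusters of a class share their mice.

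The receptors themselves did not pass in monocytes. Tlr2 was at 18.7 and 20.4 CPM in TLR9-/- mice against 16.1 and 22.8 CPM in WT mice (0.01), Tlr4 at 5.21 and 4.01 against 6.02 and 5.62 CPM (-0.34) and Tlr6 at 4.32 and 4.96 against 4.68 and 9.59 CPM (-0.62 ± 0.38). Ly96 was at 27.8 and 26.1 against 32.5 and 24.5 CPM (-0.08) and Cd180 at 18.4 and 22.3 against 25.4 and 23.1 CPM (-0.25). Tlr2, Tlr6 and Ly96 overlapped between genotypes, and Tlr4 and Cd180 did not. In mature neutrophils, where Tlr2 was highest, it was at 109 and 112 against 61.2 and 97.2 CPM (0.36 ± 0.33).

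Cd180 and Tlr1 did not pass where they were highest either. Tlr1 in B cells was at 30.4 and 42.3 against 30.1 and 28.1 CPM (0.34 ± 0.25), just without overlap. Of B cells, the cluster led by Ighd and Fcer2a made up 45.9% and 75.5% in TLR9-/- mice and 45.6% and 50.4% in WT mice. How far this makeup moved the Tlr1 values was not tested. Cd180 in plasmacytoid dendritic cells was at 133 and 143 against 128 and 134 CPM (0.07 ± 0.17), and it differed by 0.07 in B cells and by 0.00 in dendritic cells. The SE of 0.17 in plasmacytoid dendritic cells was among the smallest here, and these values do not show that the genotypes were equal. Whether a difference varied between classes was tested for 78 pairs of classes within a gene by edgeR's interaction term. In these tests 0 passed, 0 had an unadjusted p under 0.05 and the lowest adjusted p was 0.836. The pairs share libraries, and the share of all genes called is not given beside this count. The count does not show that the differences were the same in every class.

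Over all kept cells, where a shift in the makeup of the marrow and a shift within cells cannot be told apart, Cd14 was at 11.5 and 6.36 CPM in TLR9-/- mice against 4.13 and 2.21 CPM in WT mice (1.50 ± 0.42, adjusted p = 0.195). Tlr2 was at 8.53 and 9.09 against 4.58 and 6.89 CPM (0.62 ± 0.24, adjusted p = 0.290). Neither overlapped between genotypes, which held for 51.1% of all genes. By edgeR's test 0 of 8 passed, beside 0.268% of all genes, and 2 of 8 were under 0.05 before adjustment, beside 17.1% of all genes. DESeq2's Wald test called Cd14 (1.51, adjusted p = 0.0162). When the classes were given the same shares in every library, the log2 ratio of TLR9-/- over WT was 0.77 for Cd14 and 0.21 for Tlr2, against 1.50 and 0.62 as measured. For Tlr1 it was 0.10 against -0.25, and for Ly86 -0.35 against -0.26. Ly86 itself was at 127 and 121 against 187 and 112 CPM (-0.27 ± 0.26).

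The rest of the TLR pathway was followed through 72 genes in 6 lists. In monocytes none of the genes tested passed between genotypes by edgeR's test: 0 of 4 other TLRs, 0 of 8 chaperones and accessory proteins, 0 of 18 adaptors and kinases, 0 of 9 transcription factors, 0 of 11 inhibitors and 0 of 8 target genes, with median log2 differences of -0.46, -0.10, -0.11, -0.05, -0.06 and 0.22. Of all 72 genes in all classes, only Tlr12 in plasmacytoid dendritic cells passed. Tlr9, the disrupted gene, was on the list of other TLRs and was not called in any class. In plasmacytoid dendritic cells it was at 3.91 and 6.30 CPM in TLR9-/- mice against 24.8 and 14.8 CPM in WT mice (unscaled). A gene without a call can therefore still differ between genotypes. Tlr12, an endosomal receptor for profilin of parasites, was at 11.4 and 11.3 CPM in TLR9-/- mice against 38.1 and 47.0 CPM in WT mice (-1.89 ± 0.26, adjusted p = 0.0131), on 20, 29, 71 and 58 UMIs. The WT libraries lay far above both TLR9-/- libraries.

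Along the lineages the other pathway genes did not move with the members at every step. From HSPCs to myeloid progenitors, 5 members rose and 0 fell. There 0 of 5 other TLRs and 0 of 17 adaptors and kinases rose, and 1 of each fell. Of 14 inhibitors 2 rose and 7 fell, and of 11 target genes 1 rose and 7 fell. Of 8 chaperones 6 rose and 0 fell, and of 9 transcription factors 4 rose and 1 fell. Of all genes, 19.8% rose and 19.8% fell here. From myeloid progenitors to monocytes, 3 of 5 other TLRs, 10 of 17 adaptors and kinases, 8 of 9 transcription factors, 6 of 14 inhibitors, 5 of 11 target genes and 4 of 8 chaperones rose, and 0, 3, 0, 0, 1 and 2 fell. Of all genes, 29.0% rose and 28.3% fell at this step. From B-cell precursors to B cells, all 9 transcription factors tested and 10 of 17 adaptors and kinases rose and none of either fell. The shares of all genes were 26.2% up and 24.6% down. From intermediate to mature neutrophils, 8 of 11 target genes rose, whereas 2 of 17 adaptors and kinases rose and 2 fell. Here 13.9% of all genes rose and 15.9% fell. From B cells to plasma cells, 6 of 9 transcription factors fell and 1 rose, and 5 of 11 target genes rose, beside 22.0% of all genes that rose and 17.1% that fell.

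Some of these genes had their highest level in the same classes as the members. Myd88, the adaptor used by TLR1, TLR2, TLR4 and TLR6, was highest in mature neutrophils (mean 172 CPM, scaled across classes), as were Tlr13 (141 CPM) and Spi1, which encodes PU.1 (1046 CPM). Unc93b1, the chaperone of endosomal TLRs, and Tlr7 were highest in plasmacytoid dendritic cells (568 and 52.9 CPM). Hsp90b1, the folding chaperone of the surface TLRs, was highest in plasma cells (3642 CPM), where Tlr1 and Cd180 had fallen. Lbp, whose product binds lipopolysaccharide in serum and passes it to CD14, was highest in immature neutrophils (136 CPM).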

How the data were processed

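The authors sequenced 10x Chromium 5′ libraries of 4 mice on a NovaSeq instrument and aligned the reads to mm10 with Cell Ranger, which uses STAR; per the file headers the matrices were written by Cell Ranger 3.0.1, and per the labels Seurat 2.3.4 was used later. The deposited matrices hold counts of UMIs per gene and called cell, with no normalization for depth, beside lists of barcodes and genes. From here on the values were computed for this text with Python 3.11.15, numpy 2.4.6, scipy 1.17.1, scanpy 1.11.5, leidenalg 0.10.2 and R 4.3.3.

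Cells with 200 to 10000 detected genes and at most 10% mitochondrial UMIs were kept. The mitochondrial limit is printed as a percentage in the methods and was read as the fraction 0.10. Cells were clustered on 2000 variable genes, 30 principal components and 15 neighbours (Leiden resolution 1, 56 clusters), without the 8 members and the pathway genes. A cluster took the name of the class with the most markers among its top 10 genes by fold, and needed at least 3 markers among its top 50. Clusters whose leading genes disagreed, and the pooled monocyte, macrophage and dendritic clusters, were clustered once more, and clusters with markers of both neutrophil lists were called intermediate neutrophils. This naming rule was chosen after seeing the data. Doublets were marked by the procedure of Scrublet. In WT library 2 its automatic threshold marked 0.0112% of cells, so the expected number was marked there (632 cells). Marked cells were kept, except in clusters with over 50% of them, which stayed unnamed.

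UMIs were summed per library and class, since cells of 1 mouse are not replicates. Genotypes were compared by edgeR 4.0.16 (quasi-likelihood test, TMM scaling, filterByExpr, Benjamini-Hochberg over all genes tested in the class), and classes in 1 fit over 16 classes with the library as a block. An adjusted p under 0.05 was called. Levels between classes carry TMM factors over all classes, and levels between genotypes those within the class. Members are named in every class, with a genotype difference where a member had at least 100 UMIs, together with the pathway genes past the threshold and, for each member, the 3 genes most like it among those with at least 10 CPM in 1 class. On counts simulated from the monocyte libraries (10100 genes), edgeR called 50% of 98 genes changed 2-fold and 96.9% of 98 changed 4-fold. On counts simulated for monocytes against B cells (9980 genes), it called 39% of 100 genes changed 2-fold and 99% of 100 changed 4-fold. The changed genes there were drawn above a limit on level that only Ly86 of the members passed. Over all kept cells Ly86 was at 132 CPM and the next, Cd180, at 18.7. Both simulations used the same dispersion for every gene, so these rates do not give the recovery of members with few UMIs. Alternatives were DESeq2 1.42.0 (size factors and Wald test), no filter, the replicate number as a block, each library left out, cells thinned to 1000 UMIs, marked doublets left out, members kept in the clustering, Leiden resolution 2 and, added after seeing the data, no scaling between classes. Intervals, floors of 3 counts and SEs of single libraries cover counting error only. The members, lists and the promoter motif were chosen with earlier results of these data known. Figures were drawn with matplotlib 3.10.9.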

Additional observations from a re-analysis of the deposited data

How the results depend on the processing

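Between genotypes, the 0 calls within classes stayed 0 under every other alternative run, but were 2 with the replicate block (Cd14 in monocytes, 0.94, adjusted p = 0.0187, and Ly86 in monocytes, -0.60, adjusted p = 0.00844) and 0 to 1 with a library left out. Over all cells, 0 members became 1 (Cd14) by DESeq2's Wald test, with no filter and with the replicate block (1.50, adjusted p = 0.0120), and stayed 0 with any library left out. Per the methods, the libraries were made in 2 experiments with 1 mouse of each genotype in each, which would make such a block fit the design, but the labels do not say that the numbers 1 and 2 mark these experiments. The deviations of same-numbered libraries correlated positively in every class, by 0.166 in HSPCs to 0.553 in erythroid cells, which goes with such pairs. There are only 2 pairs and the labels do not name the experiments, so the block is given as an alternative. Which of the 2 fits applies to Cd14 and Ly86 in monocytes cannot be settled from the labels. Genes called, summed over classes, numbered 369, and 2609 with the replicate block, 1721 with no filter, 417 by DESeq2's Wald test, 339 without marked doublets, 87 in thinned cells and 740 to 1350 with a library left out. Over all cells they numbered 38, and 1165, 605, 851, 10 and 58 to 88 under the block, no filter, DESeq2's Wald test, thinning and leaving out a library. Why these counts moved was not tested. No share of all monocyte genes called with the block is given, so the 2 calls there have no background beside them. With a library left out, 1 genotype had 1 mouse, so calls from those fits do not measure the spread between its mice.

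Of 442 alternative values of genotype differences, 390 kept direction and side of the threshold, 7 passed it and 45 changed sign, in 22 results, none of these 45 below an adjusted p of 0.323. With a library left out, Ly86 ran from -0.59 to 0.16 over all cells, -0.22 to 0.10 in B cells, -0.39 to 0.29 in B-cell precursors, -1.77 to 0.62 in erythroid cells, -0.86 to 0.039 in HSPCs, -0.97 to 0.64 in immature neutrophils, -0.75 to 0.42 in myeloid progenitors and -2.66 to 1.14 in plasma cells. Cd180 ran from -0.13 to 0.30 in B cells, -0.31 to 0.14 in precursors and -0.057 to 0.076 in dendritic cells. Ly96 ran from -0.33 to 0.50 over all cells, -0.60 to 0.56 in B cells, -0.26 to 0.14 in monocytes, -0.16 to 0.56 in myeloid progenitors and -1.01 to 0.16 in plasmacytoid dendritic cells. Tlr2 ran from -0.37 to 0.95 in intermediate neutrophils and -0.22 to 0.29 in monocytes, Tlr4 from -0.73 to 0.12 in myeloid progenitors and Tlr6 from -0.093 to 0.27 over all cells. Other sign changes were Ly96 in B cells (-0.0028 with DESeq2 size factors, -0.0081 with no filter, -0.056 without doublets, -0.080 at Leiden resolution 2), Cd180 in dendritic cells (-0.0026 with DESeq2 size factors and -0.0030 by its Wald test, -0.31 with members in the clustering, -0.23 at resolution 2), and, in thinned cells, Ly86 in precursors (0.20), immature neutrophils (0.20) and myeloid progenitors (0.041), Cd180 in plasmacytoid dendritic cells (-0.025) and Tlr1 over all cells (0.15). Without doublets Ly86 in precursors was 0.0091 and Tlr2 in monocytes -0.022.

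Between classes, 14 neighbour tests passed, 26 with no scaling between classes and 9 to 16 with a library left out. Signs turned for Cd14 in myeloid progenitors over immature neutrophils (-0.67 thinned; 0.67 as the step), Ly96 in plasma over B cells (-0.0021 thinned), Ly86 in precursors over HSPCs (-0.012 at resolution 2), and intermediate neutrophils over monocytes with no scaling (Tlr2 -0.38, Tlr6 -0.39).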

Other observations

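The 1520 cells left without a name held all 8 genes, at 3.74 CPM of Tlr1, 11.9 of Tlr2, 4.76 of Tlr4, 2.55 of Tlr6, 9.43 of Cd14, 11.9 of Ly96, 14.1 of Cd180 and 150 of Ly86, pooled over libraries and unscaled. The 27 macrophages, named from markers, were too few for a comparison and held 32 UMIs of Ly86, 4 of Ly96, 3 of Cd14, 2 of Tlr2 and 1 of Cd180. No UMI of Tlr1, Tlr4 or Tlr6 was seen in them. The 102 megakaryocytes held 11 UMIs of Cd180 and 7 of Ly86.

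Monocyte clusters differed in the receptors they carried, as pooled and unscaled CPM. Tlr2 was at 68.9 in a cluster that came mostly from the libraries numbered 2 (70, 360, 40 and 217 cells in TLR9-/- libraries 1 and 2 and WT libraries 1 and 2) and at 7.17 in the largest cluster. Cd180 was at 65.4 in the cluster led by Ifit3 and at 9.38 in another. Ly86 was at 593 in the cluster led by Ifit3 and at 205 in the largest cluster. These values have no test between clusters.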
